A study of Homo sapiens with 3 samples.

Results

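The long intergenic noncoding RNAs of PANC-1 cells were read as the rows of the count table whose symbol is LINC followed by digits and which held at least 10 reads in at least 1 of 3 libraries. Of 51136 rows in the table, 881 carried such a symbol, and 105 of these passed. Another 180 had between 1 and 9 reads in their highest library, and 596 had no read in any library. The 105 were thus chosen by their read counts in these same libraries, and all counts and medians over them below are a description of these libraries. At the edge of the choice, 4 rows reached exactly 10 reads in their highest library, among them LINC00173 with 6, 2 and 10 reads in control, Rg3 and TAM and LINC01347 with 4, 10 and 3, while 3 rows stopped at 9, among them LINC00982 with 9, 1 and 3.

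Long noncoding RNAs are transcribed by RNA polymerase II, and most are capped, spliced and polyadenylated like mRNAs, but they are not known to be translated. A LINC number is a placeholder given to a transcript that lies between coding genes and has no described function, and it is replaced by a functional name once one is found. Described members act in several ways. Some bind proteins and keep them from their targets, some hold a neighbouring gene up or down, some are only the precursors of microRNAs or small nucleolar RNAs, and some turned out to encode a short protein. Most are expressed at a far lower level than coding genes and in few tissues, so that in bulk RNA-seq their counts are small.

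PANC-1 is an established cell line from a human pancreatic duct carcinoma. The study asked how gene expression in these cells responds to Rg3, a ginsenoside from ginseng, and to tamoxifen (TAM), an estrogen receptor modulator that also inhibits protein kinase C. There was 1 library each of cells without an agent (control), of cells given 200 μM Rg3 for 24 h and of cells given 50 μM TAM for 24 h. All were made from total RNA of the same line, and the labels name no vehicle for the control. With 1 library per condition there is no replicate check and no test, and the 95% intervals below (exact, Clopper-Pearson) cover counting error alone.

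The reads counted on genes came to between 11300766 and 12861693 per library. The keratins KRT8 and KRT18, which mark epithelial cells, had at least 7406 reads in each library, and VIM, which PANC-1 is known to express, had at least 39783. KRT19, a duct keratin, had 665, 290 and 181 reads in control, Rg3 and TAM, and EPCAM was low throughout (26, 26 and 8). The acinar markers PRSS1, CPA1 and AMY2A and the islet markers INS and GCG had no read in any library, and PTPRC of leukocytes and PECAM1 of endothelium had at most 1. A 0 in 1 library allows up to 3 reads. The 105 LINC symbols together took 8077 reads in control, 9779 with Rg3 and 8124 with TAM, which is 0.0715%, 0.0760% and 0.0718% of all reads. Fewer cells that make a transcript and less of it per cell cannot be told apart in such bulk libraries.

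The reads were spread very unevenly over the 105. The 10 symbols with most reads took between 54.3% and 55.3% of them in each library, while 68 of the 105 had at least 10 reads in each of the 3 libraries, 16 in 2 and 21 in 1. First came LINC00116, now named MTLN, with 991 reads in control, 633 with Rg3 and 1386 with TAM. Its symbol dates from before a short protein of the inner mitochondrial membrane, mitoregulin, was found to be made from it. LINC00493 (510, 757 and 546 reads) is likewise the gene of a small mitochondrial protein, SMIM26, and LINC01420 (476, 610 and 332) is NBDY, whose short protein joins the mRNA decapping complex. Of the transcripts still classed as noncoding, LINC00657 had the most reads summed over the 3 libraries, with 514, 909 and 158, although LINC00673 and LINC00152 had more with TAM. LINC00657 is NORAD, a cytoplasmic RNA that binds the PUMILIO proteins and is known for its part in chromosome stability.

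Of the other symbols among the first 10, LINC00673 had 518, 385 and 490 reads in control, Rg3 and TAM, and it lies at a locus linked to the risk of pancreatic cancer. LINC00152, or CYTOR, a transcript raised in many tumours, had 399, 461 and 513 reads. LINC00094 (343, 405 and 349) is BRD3OS, read from the strand opposite to BRD3, LINC01578 (302, 442 and 242) is CHASERR, which holds down its neighbour CHD2, and LINC00667 and LINC00674 had 229, 372 and 270 and 182, 383 and 127 reads. The order changed when counts were divided by transcript length. On the scale of TMM-scaled CPM per kilobase of transcript, where CPM is the count divided by the scaled size of its library, LINC00493 led the control library at 66.4, followed by LINC00116 at 42.1, LINC01420 at 27.2 and LINC00674 at 23.4, while the long transcripts LINC00657, at 8.40, and LINC00152, at 4.63, came lower. The length was that of the longest GENCODE transcript, 2051 bases for LINC00116, more than its RefSeq gene spans. The place of LINC00116 in this order thus depends on the annotation used. The most abundant members by both measures thus included symbols that have since been reclassed as coding.

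**Figure D1:**
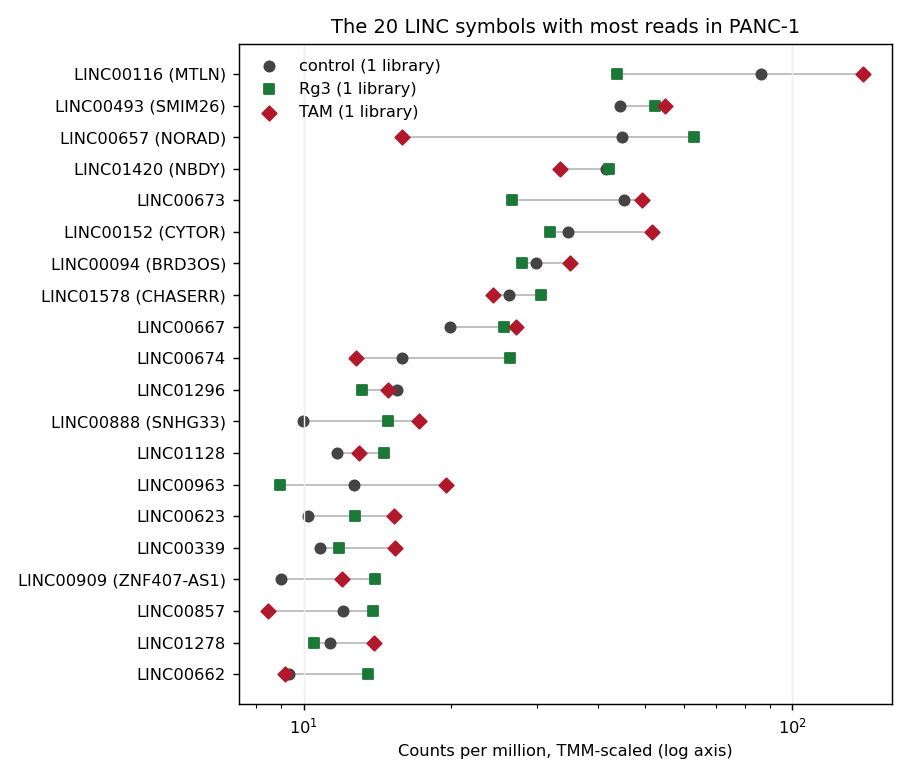
TMM-scaled CPM (log axis) of the 20 LINC symbols with most reads, for control (circles), Rg3 (squares) and TAM (diamonds), each from 1 library, with the current RefSeq name in brackets. LINC00116 spans the range from 43.8 with Rg3 to 140 with TAM, and LINC00657 is the symbol whose TAM value lies farthest below its other values.

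The symbols were matched to the current RefSeq annotation of the human genome (GRCh38.p14), where 101 of the 105 were found, 72 by the same symbol and 29 under a newer name. RefSeq classed 93 of these as long noncoding RNA and 8 as protein coding. Among the newer names, 5 end in DT, for a transcript divergent from a coding gene, 2 contain AS, for antisense, 3 are hosts of a microRNA and 1, SNHG33 (LINC00888), is a host of small nucleolar RNA. The unmatched symbols were LINC00086, LINC00087, LINC00341 and LINC01296. The longest GENCODE transcript was known for 96 of the 105. Its median length was 2439.5 bases, against 3692 in protein-coding genes with enough reads to be compared, and its median GC content was 48.9% (range 35.6 to 64.4%), against 48.8%. Of 94 symbols with a GENCODE gene, 47 had exons that overlap no other annotated gene, 35 had an exon that overlaps a gene on the opposite strand and 22 one on the same strand. The sources used here do not say whether strand was used in counting, so reads of the overlapping genes may be among those of these symbols.

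The change of each symbol was taken as the log2 ratio of TMM-scaled counts, for symbols with at least 10 reads in either of the libraries compared. A symbol or gene is called past the fold limit below where the ratio was over 1.5 or under 0.67, the limits of the study's methods, and its 95% counting interval excluded no change. Both treated libraries were set against the same control library, so the values of the 2 comparisons are not independent of each other.

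With Rg3 and TMM scaling, more LINC symbols were past the fold limit downwards than upwards, a balance that depended on the scaling. Of 97 compared, 15 were lower and 3 were higher, against 16.5% of all compared genes lower and 20.6% higher. The share that was lower was thus near that of all genes, and the share that was higher, 3.09%, was below it. The median log2 ratio was -0.09 over the 97 and 0.04 over all genes, and the values ran from -2.33 to 1.18. By the way they were chosen, these 97 include symbols that entered through a single library. Among the 85 with at least 10 reads in the control library, 15 and 3 were past the limit. That choice keeps symbols compared only through their control reads, which could be past the limit only downwards. With division by library totals 9 were lower and 9 higher. The median was then 0.053, beside 0.18 over all genes. Among symbols with at least 50 reads 4 were lower and 3 higher and the median was 0.17.

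LINC00116 held most reads among the symbols that were lower with Rg3. From 991 reads in control and 633 with Rg3, its log2 ratio was -0.98 (95% counting interval -1.13 to -0.84), a level 1.97 times lower. The gene lies on the minus strand at chr2:110211529-110212547, and one of its exons overlaps an unnamed gene on the other strand. LINC00673, with 518 and 385 reads, had a ratio of -0.76 (-0.96 to -0.57). LINC01123 had 112 and 56 reads and a ratio of -1.33 (-1.82 to -0.86), but 92.8% of its stretches of 50 bases recur in LINC01106, a second symbol of the same neighbourhood of chromosome 2, which had 45 and 36 reads and a ratio of -0.66 (-1.33 to 0.01). Reads of these 2 symbols could not be told apart over most of their length.

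Smaller counts made up the rest of the decreases. LINC01270 had 32 reads in control and 14 with Rg3 (-1.53, interval -2.55 to -0.58), and 45.3% of its stretches recur elsewhere, mainly in LINC01271. LINC00910 had 31 and 18 reads (-1.12, -2.04 to -0.24) and LINC00337, the transcript divergent from ICMT, 21 and 12 (-1.14, -2.30 to -0.05). These intervals reach close to no change, and those of LINC01521 (33 and 23 reads, -0.85), LINC00839 (49 and 37, -0.74) and LINC01547 (45 and 32, -0.83) do so as well. LINC01089 had 54 and 38 reads (-0.84, -1.48 to -0.22). LINC00471, LINC00592, LINC00925, LINC01061 and LINC00176 were the other decreases, with 27, 11, 18, 16 and 12 reads in control and 15, 4, 9, 7 and 3 with Rg3. Once the trend of all genes with GC content and length had been subtracted, the ratios of LINC00673 (-0.50), LINC01089 (-0.46), LINC01521 (-0.32), LINC01547 (-0.19), LINC00337 (-0.89) and LINC00176 (-1.68) were no longer past the limit, while LINC00116 (-0.89), LINC01123 (-1.02), LINC01270 (-1.48) and LINC00910 (-0.90) were past it. With library totals, LINC00337 (-0.99), LINC01521 (-0.71) and LINC01547 (-0.68) were no longer past it.

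The 3 symbols past the limit upwards with Rg3 were LINC00674, LINC00909 and LINC00998. LINC00674 had 182 reads in control and 383 with Rg3, a ratio of 0.74 (0.48 to 1.00). LINC00909, which RefSeq names ZNF407-AS1, had 103 and 202 reads (0.64, 0.29 to 0.99). LINC00998, which encodes the small membrane protein SMIM30, had 29 and 64 (0.81, 0.15 to 1.49). All 3 have a GC content under 45%, and once the trend of all genes with GC content and length had been subtracted their ratios were 0.33, 0.16 and 0.04, none past the limit. Other symbols with many more reads in the Rg3 library than in control stayed under a ratio of 1.5 with TMM scaling. Among them were LINC00657 (514 and 909 reads, log2 ratio 0.49, interval 0.33 to 0.65) and LINC00641 (100 and 166, 0.40, 0.03 to 0.77). With library totals LINC00657 was past the limit, at 0.64, and LINC00641 was not, at 0.54.

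**Figure D2:**
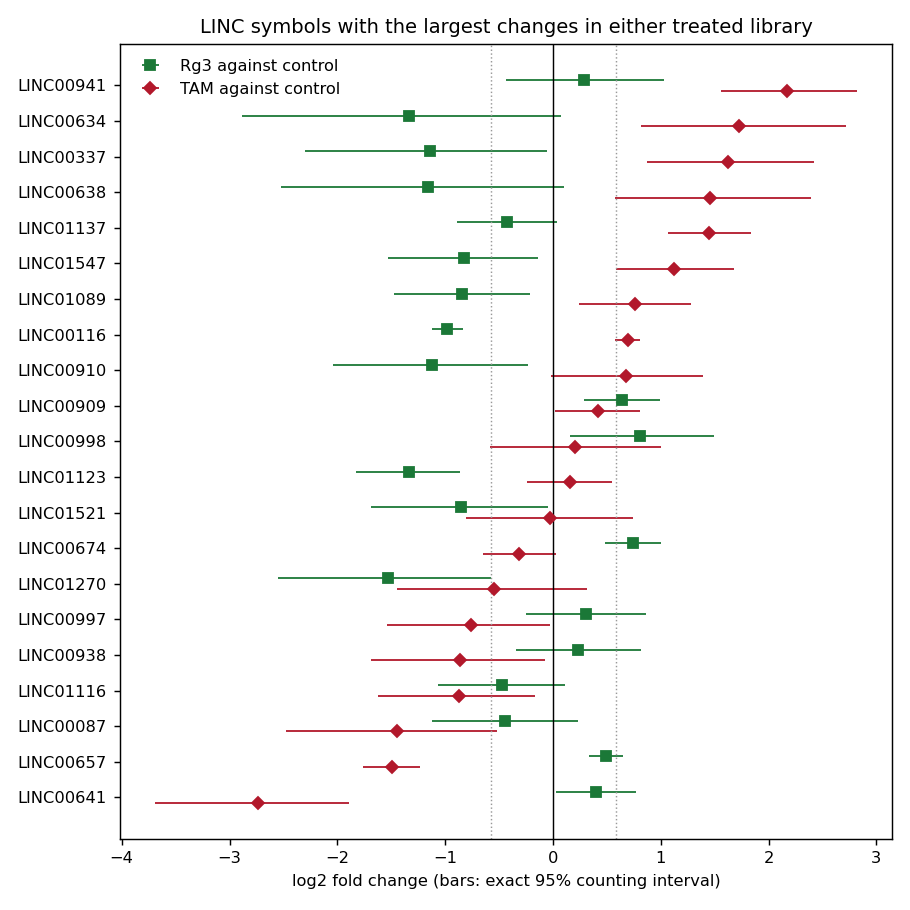
Log2 ratio to the control library of the LINC symbols past the fold limit that had the largest changes with Rg3 (squares) or TAM (diamonds), with exact 95% counting intervals from 1 library each. Dotted lines mark ratios of 1.5 and 0.67. LINC00941 at 2.17 and LINC00641 at -2.74 are the TAM values at the ends, and their Rg3 values are 0.28 and 0.40.

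With TAM and TMM scaling, more LINC symbols were higher than lower past the limit, and this too turned with the scaling. Of 97 compared, 19 were higher and 10 were lower, against 14.5% of all compared genes higher and 19% lower. The median log2 ratio was 0.08 over the 97 and -0.02 over all genes, with values from -2.74 to 2.71. Among the 85 symbols with at least 10 reads in the control library, which leaves out those that were counted because of their TAM reads, 12 were higher and 10 lower and the median was -0.06. It keeps symbols compared only through their control reads, which could be past the limit only downwards. With division by library totals 12 of the 97 were higher and 14 lower, and the median was -0.13, beside -0.23 over all genes. The excess of increases thus changed with the choice of symbols and with the scaling.

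LINC00941 and LINC01137 were the increases with at least 100 reads and the largest ratios. LINC00941, a transcript described as raising invasion in several carcinomas, had 28 reads in control, 43 with Rg3 and 109 with TAM. Its TAM value stood alone, at a ratio to control of 2.17 (1.56 to 2.82), a level 4.49 times higher. It lies on the plus strand at chr12:30795681-30802711, where its exons overlap 2 annotated genes on the same strand, one of them a second entry of the same name that holds 96.5% of its stretches of 50 bases. LINC01137, which RefSeq names LITATS1, a transcript known to restrain TGF-β signalling, had 83, 78 and 196 reads. Control and Rg3 were close to each other in reads, and TAM was 2.73 times above control (log2 ratio 1.45, 1.07 to 1.84). It lies on the minus strand at chr1:37454879-37474443, and its exons overlap no other annotated gene.

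Other increases came from symbols that were scarce in the control library. LINC00337 had 21, 12 and 56 reads in control, Rg3 and TAM (TAM ratio 1.62, 0.88 to 2.42). LINC00634, now SMIM45, had 14, 7 and 40 (1.72, 0.81 to 2.71), and LINC00638 had 16, 9 and 38 (1.46, 0.58 to 2.40). In all of these the TAM library held the most reads and the Rg3 library the fewest. LINC01547 showed the same order, with 45, 32 and 85 reads and a TAM ratio of 1.12 (0.59 to 1.68), and so did LINC01089 with 54, 38 and 79 (0.76, 0.24 to 1.28). In LINC01089, 53.3% of the stretches of 50 bases recur elsewhere, mainly in RHOF, whose exons overlap it on the same strand.

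LINC00116 was also past the limit upwards with TAM, at 1386 reads against 991 and a ratio of 0.69 (0.57 to 0.81). With division by library totals the ratio was 0.48 and with the trend removed 0.43, under the limit, and for LINC01089 these values were 0.55 and 0.33. LINC00888 (SNHG33), with 114 and 171 reads, had a ratio of 0.79, and LINC00963, with 145 and 194, one of 0.63. LINC00847, with 83 and 109, had one of 0.60 and LINC00467, with 33 and 48, one of 0.75. Library totals move each of these ratios by -0.21, which brings all of them under the limit. With the trend removed LINC00847 was at 0.35, under the limit, LINC00888 at 0.80 and LINC00467 at 1.04. Under 30 reads in both libraries, LINC00482 had 9 reads in control and 25 with TAM, LINC01481 had 7 and 20, LINC01311 7 and 16, LINC00899 4 and 16, LINC01389 3 and 12, LINC01134 2 and 13 and LINC01125 2 and 17. The last 3 rest on at most 3 reads in the control library, and their ratios are not read here.

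Decreases with TAM were led by LINC00641 and LINC00657. LINC00641 had 100 reads in control, 166 with Rg3 and 13 with TAM. The TAM library stood apart, 6.66 times below control (log2 ratio -2.74, -3.69 to -1.90). LINC00641 lies on the minus strand at chr14:21200079-21206900, its exons overlap no other gene, and 0.0744% of its stretches of 50 bases recur elsewhere. LINC00657 fell from 514 reads to 158, 2.82 times lower once scaled (-1.49, -1.76 to -1.23). It is a single-exon gene on the minus strand at chr20:36045618-36050960 with no overlapping exon, but 35.3% of its stretches recur elsewhere, mainly in OVCH1-AS1. With that trend subtracted both decreases stayed past the limit, at -2.18 and -0.94.

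The other decreases with TAM had fewer reads. LINC00087 had 41 reads in control, 38 with Rg3 and 13 with TAM (TAM ratio -1.45, -2.47 to -0.52). LINC01116 had 53, 48 and 25 (-0.88, -1.62 to -0.16), LINC00938 44, 65 and 21 (-0.86, -1.68 to -0.08) and LINC00997 47, 73 and 24 (-0.76, -1.54 to -0.02). In each of these the TAM library was the lowest of the 3. LINC00261, beside the endoderm factor FOXA2, had 58, 52 and 32 reads and a ratio of -0.65, and 97.3% of its stretches also belong to a second annotated gene. Its decrease and that of LINC00997 were under the limit with the size factors of DESeq2, at -0.62 and -0.73, since their counting intervals then reached no change. With the trend on GC and length subtracted, LINC00261 was at -0.20, no longer past the limit, and LINC00997 at -0.81. LINC01447, with 12, 12 and 0 reads, was 3.46 times lower with TAM than control when the 0 is set to 3 reads. That value comes from the setting and is not a bound on the change. LINC00312 had 11, 11 and 1 reads, and LINC00176 had 12, 3 and 2.

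The region around the annotated start is shown for the 2 largest increases and 2 largest decreases with TAM among symbols that had at least 100 reads in a library, since their ratios were the largest at that depth. The 4 were picked after their values were seen. Each sequence is from RefSeq (GRCh38.p14), 250 bases before the start to 50 after it, written 5′ to 3′ on the strand of the transcript. Capitals mark matches to 5 motifs searched on both strands: AP-1 (TGANTCA), CRE (TGACGTCA), CARE (TGATGNAA), TATA box (TATAAA) and GC box (GGGCGG).
LINC00941, chr12:30795431-30795730, plus strand: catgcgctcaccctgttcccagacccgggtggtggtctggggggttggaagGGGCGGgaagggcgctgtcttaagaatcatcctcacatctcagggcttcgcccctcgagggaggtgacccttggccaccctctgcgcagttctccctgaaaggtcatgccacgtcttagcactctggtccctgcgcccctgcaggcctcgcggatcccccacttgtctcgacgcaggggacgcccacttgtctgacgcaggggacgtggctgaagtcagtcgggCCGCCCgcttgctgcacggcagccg
LINC01137, chr1:37474394-37474693, minus strand: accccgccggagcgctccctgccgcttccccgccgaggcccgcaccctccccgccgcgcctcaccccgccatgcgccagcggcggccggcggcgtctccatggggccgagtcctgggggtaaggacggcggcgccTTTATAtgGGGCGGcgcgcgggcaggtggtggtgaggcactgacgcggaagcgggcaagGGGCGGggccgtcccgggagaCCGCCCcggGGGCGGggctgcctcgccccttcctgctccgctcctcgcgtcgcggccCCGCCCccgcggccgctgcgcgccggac
LINC00641, chr14:21206851-21207150, minus strand: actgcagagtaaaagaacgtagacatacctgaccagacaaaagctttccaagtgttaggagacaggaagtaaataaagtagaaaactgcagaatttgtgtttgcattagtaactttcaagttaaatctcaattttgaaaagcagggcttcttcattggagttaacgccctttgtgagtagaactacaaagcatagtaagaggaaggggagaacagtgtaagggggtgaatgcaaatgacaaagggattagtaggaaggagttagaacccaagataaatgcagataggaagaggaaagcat
LINC00657, chr20:36050911-36051210, minus strand: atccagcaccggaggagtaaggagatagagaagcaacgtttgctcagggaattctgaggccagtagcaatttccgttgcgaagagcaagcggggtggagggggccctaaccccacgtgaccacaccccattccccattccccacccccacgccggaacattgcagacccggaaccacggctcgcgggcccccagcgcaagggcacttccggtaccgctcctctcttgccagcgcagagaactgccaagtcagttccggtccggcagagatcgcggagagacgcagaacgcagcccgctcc

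The windows of the increased symbols held GC boxes, 2 in LINC00941 and 5 in LINC01137, and that of LINC01137 also held 1 TATA box on the reverse strand. No searched motif was found in those of LINC00641 and LINC00657. They differed in composition as well, with a GC content of 66.0% in LINC00941, 80.7% in LINC01137, 39.0% in LINC00641 and 63.0% in LINC00657, and with 21, 47, 2 and 23 CpG dinucleotides. Over the 85 LINC symbols with such a window, the GC box was in 50.6%, against 44.95% of 35116 windows of all genes, the TATA box in 9.41% against 11.5%, AP-1 in 10.6% against 7.71%, CRE in 2.35% against 1.85% and CARE in 2.35% against 3.62%. The median GC content of the windows was 61.0% and 58.7%. A match is a description of letters, and no binding was measured here.

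Set directly against each other, the treated libraries differed in more LINC symbols than either did from control. The doses differed, 200 μM Rg3 and 50 μM TAM, so the ratio compares these 2 treated libraries and not the agents at equal dose. Of 100 symbols compared, 11 were higher with Rg3 than with TAM and 24 were lower, against 30.7% of all genes higher and 27.6% lower. The median log2 ratio of Rg3 to TAM was -0.19, against 0.07 over all genes. Among the 80 with at least 10 reads in control, 11 were higher and 18 lower and the median was -0.10. That choice keeps symbols compared only through their TAM reads, such as LINC00634, which could be past the limit only downwards. It also keeps symbols compared only through their Rg3 reads, such as LINC00312, which could be past it only upwards. With division by library totals, 22 of the 100 were higher and 18 lower, so the balance turned. The median was then 0.17, beside 0.42 over all genes. LINC00641 had the largest ratio upwards, at 166 reads with Rg3 and 13 with TAM (3.13, 2.32 to 4.07), followed by LINC00657 with 909 and 158 (1.98, 1.74 to 2.24). LINC00674, with 383 and 127, was also higher with Rg3 (1.05, 0.76 to 1.35).

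In the other direction, LINC00116 had 633 reads with Rg3 and 1386 with TAM, a ratio of -1.67 (-1.81 to -1.54). LINC00634 (7 and 40 reads, -3.06), LINC00337 (12 and 56, -2.76) and LINC00638 (9 and 38, -2.62) had the largest ratios downwards with at least 30 reads in the higher library. LINC00634 and LINC00638 were compared only through their TAM reads, so they could be past the limit only downwards. LINC00941 (43 and 109, -1.88), LINC01137 (78 and 196, -1.87), LINC01547 (32 and 85, -1.95) and LINC00910 (18 and 43, -1.80) lay close to one another. LINC00152, with 461 and 513 reads, was lower with Rg3 by 0.70 on the log2 scale (-0.88 to -0.51), although neither of its ratios to control, -0.13 and 0.57, was past the limit. With library totals its ratio of Rg3 to TAM was -0.34, no longer past the limit. With the trend on GC and length subtracted it was -1.95. The TMM scaling factors were 1.12 for the Rg3 library and 0.877 for the TAM library, so each of these ratios is lower than one taken from library totals.

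**Figure D3:**
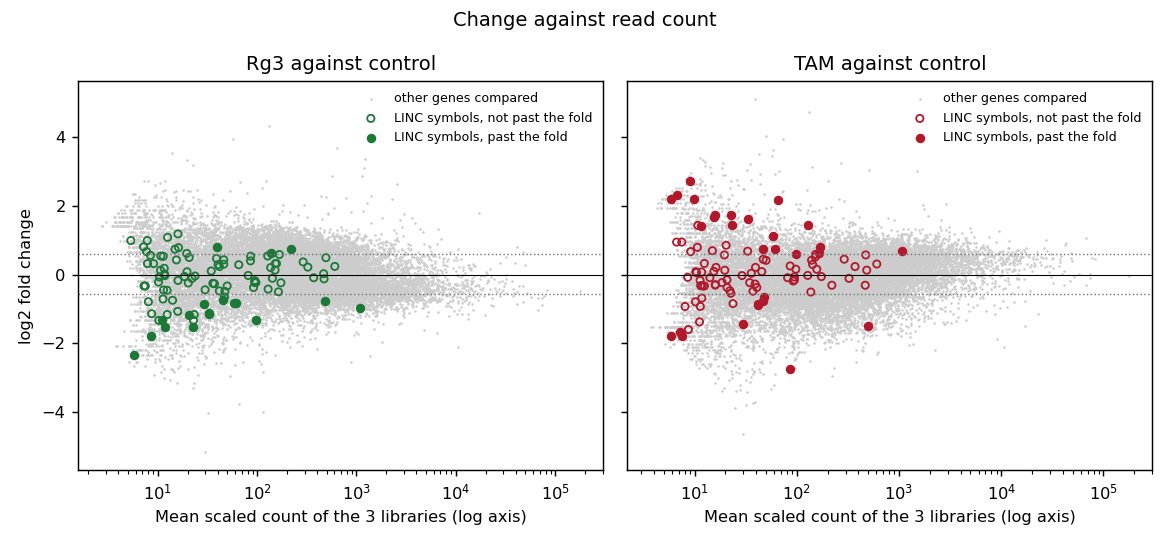
Log2 ratio to control of each gene compared (grey) and of the LINC symbols (open circles, or filled where past the fold limit) against the mean scaled count of the 3 libraries on a log axis, for Rg3 (left) and TAM (right). Dotted lines mark ratios of 1.5 and 0.67. Of 97 LINC symbols in each panel, 21 have a mean of 100 or more. Their lowest and highest ratios with Rg3, -2.33 and 1.18, lie under a mean of 30. With TAM the highest, 2.71, lies under 30 and the lowest, -2.74, at 30 to 100.

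The calls were also counted by depth. Under a mean of 30 scaled reads, 49 LINC symbols were compared with control in each treated library, and 0 were higher and 7 lower with Rg3, while 9 were higher and 4 lower with TAM. Of these 9, 7 had under 10 reads in control and were compared only through their TAM reads, so they had to be higher there. In the same way, some decreases were compared only through their control reads and could be past the limit only downwards. These were LINC00592, LINC00925, LINC01061 and LINC00176 with Rg3, and LINC01447, LINC00312 and LINC00176 with TAM. Among all genes of that depth, 11.5% were higher and 11.8% lower with Rg3, and 11.3% and 12.4% with TAM. At a mean of 30 to 100, 1 of 27 symbols was higher and 6 were lower with Rg3, and 6 were higher and 5 lower with TAM, where all genes had 29.5% higher and 17.2% lower with Rg3 and 11.6% and 25.1% with TAM. At 100 or more, 2 of 21 symbols were higher and 2 lower with Rg3, and 4 were higher and 1 lower with TAM, where all genes had 20.9% and 17.9% with Rg3 and 16.3% and 19.1% with TAM.

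Base composition moved with the ratios in these libraries. Over all genes, Spearman's rho between GC content and log2 ratio was -0.75 with Rg3 (14855 genes) and 0.44 with TAM (14572 genes). Over the LINC symbols it was -0.44 and 0.22, each across 88 symbols, which share the same libraries and so carry no p-value. With Rg3, 3 of 28 symbols with a GC content under 45% were higher and 0 lower, while 0 of 27 with 52% or more were higher and 9 lower. All genes had 51.0% higher and 0.84% lower under 45% GC, and 1.37% higher and 38.1% lower at 52% or more. With TAM, 3 of 27 symbols under 45% GC were higher and 3 lower, and 9 of 28 at 52% or more were higher and 1 lower. There all genes had 3.91% higher and 35.0% lower under 45%, and 26.5% higher and 8.39% lower at 52% or more. The GC-poor symbols with a mean of at least 30 reads were past the limit upwards with Rg3 in 3 of 17 cases, and all such genes in 56.3%. Whether composition has a part in these differences was not tested.

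**Figure D4:**
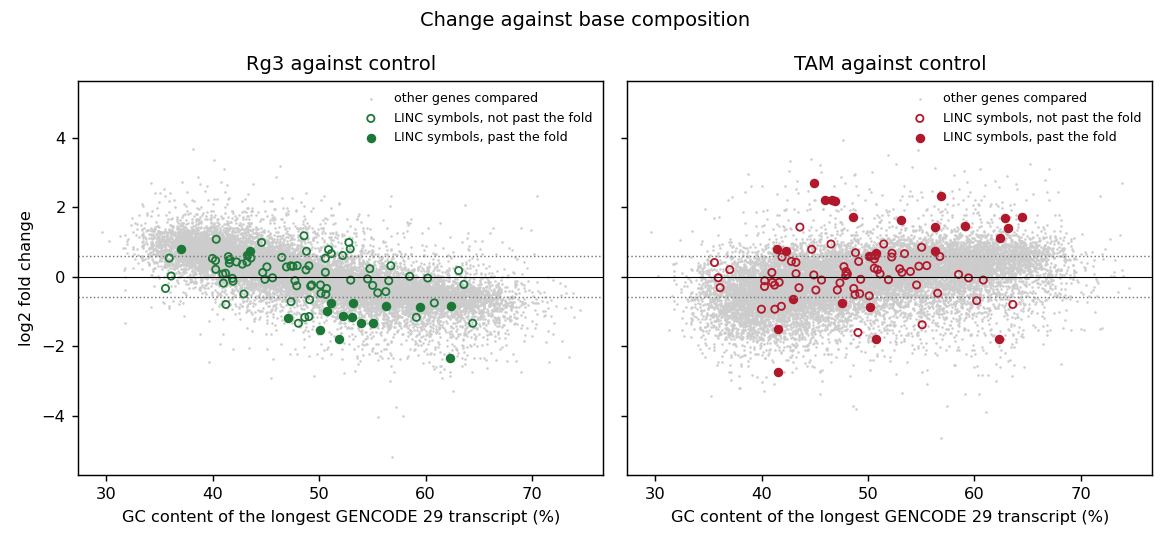
Log2 ratio to control against the GC content of the longest GENCODE 29 transcript, for all genes compared (grey) and LINC symbols (open, or filled where past the fold limit), with Rg3 (left) and TAM (right). The grey cloud falls with GC content in the Rg3 panel (rho -0.75) and rises in the TAM panel (0.44), and the LINC symbols follow with rho of -0.44 and 0.22.

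Symbols that encode, or were proposed to encode, a small protein were looked at as a group. The list held 10 symbols, of which 9 were in the table and 7 were among the 105. Besides LINC00116, LINC00493, LINC01420, LINC00094 and LINC00998 these were LINC00086 (20, 12 and 14 reads in control, Rg3 and TAM) and LINC00087. With Rg3, 1 of the 7 was higher, LINC00998, and 1 lower, LINC00116, and with TAM 1 was higher, LINC00116, and 1 lower, LINC00087. Each count is 14.3% of the 7, beside 20.6% of all genes higher and 16.5% lower with Rg3 and 14.5% and 19% with TAM. The median log2 ratios of the 7 were -0.09 and 0.21. The list leaves out LINC00634, LINC01125 and LINC00176, which RefSeq classes as protein coding. Of the 8 symbols in that class, 3 (37.5%) were higher and 1 (12.5%) lower with TAM. Of 7 of them compared with Rg3, 1 (14.3%) was higher and 2 (28.6%) lower. LINC01125 was compared with control only through its TAM reads, and LINC00176 only through its control reads. LINC00493 had ratios of 0.24 (0.07 to 0.40) with Rg3 and 0.31 (0.13 to 0.48) with TAM, and LINC01420 had ratios of 0.02 and -0.31, none past the limit. The genes of small mitochondrial proteins, LINC00116 and LINC00493, thus differed in their ratios with Rg3, at -0.98 and 0.24 with intervals that do not overlap.

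A second list held 16 LINC symbols described in pancreatic cancer, of which 8 were among the 105 and the others had at most 1 read in any library. With Rg3, 0 of the 8 were higher and 1, LINC00673, was lower, and with TAM 1 was higher, LINC00941, and 2 were lower, LINC00657 and LINC00261. With the trend on GC and length subtracted, LINC00673 with Rg3 (-0.50) and LINC00261 with TAM (-0.20) were no longer past the limit. LINC00152 with Rg3 and TAM (-0.67 and 1.28) and LINC00261 with Rg3 (-0.99) then came past it. Over all genes, the shares past the limit upwards and downwards were 20.6% and 16.5% for Rg3 and 14.5% and 19% for TAM. Their median ratios were -0.18 and 0.10. LINC00346, or PRECSIT, a transcript regulated by p53, had 97, 104 and 80 reads, and its ratios of -0.23 and -0.07 had intervals on both sides of no change. LINC00460 (6, 11 and 14 reads) and LINC00511 (12, 6 and 11) had few reads, and the intervals of their ratios to control included no change.

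Some LINC transcripts start head to head with a coding gene. In 12 pairs the annotated starts lay within 1000 bases of each other on opposite strands, the coding gene being one with reads. LINC01547 and FAM207A, whose starts are 97 bases apart, were past the limit together with TMM scaling. LINC01547 had ratios of -0.83 with Rg3 and 1.12 with TAM, and FAM207A, with 147, 117 and 245 reads in control, Rg3 and TAM, had -0.66 (-1.03 to -0.30) and 0.94 (0.64 to 1.25). The Rg3 ratio of LINC01547 was no longer past the limit with library totals (-0.68) or with the trend on GC and length subtracted (-0.19). LINC01137 and ZC3H12A, which encodes an RNase that degrades inflammatory mRNAs, start 141 bases apart. The ratio of LINC01137 with TAM was 1.45 and that of ZC3H12A, with 136 and 174 reads, was 0.56 (0.23 to 0.90), under the limit. LINC01125 and ACTR1B, 110 bases apart, were also both past it upwards with TAM. ACTR1B had 897 and 1324 reads and a ratio of 0.77 (0.65 to 0.89). LINC01125 had 2 and 17 reads and was compared only through its TAM reads.

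In several other pairs the partners were not past the limit together. LINC00941 was 4.49 times higher with TAM, while CAPRIN2, whose start is 216 bases away and which encodes an RNA-binding protein, had 188 and 152 reads and a ratio of -0.10 (-0.42 to 0.22). LINC01089 had a TAM ratio of 0.76 and the histone methyltransferase gene SETD1B, 274 bases away, one of -0.37 (-0.72 to -0.03). SLC12A2, a chloride cotransporter gene 594 bases from LINC01184, fell from 210 to 90 reads with TAM (-1.02, -1.39 to -0.65), where LINC01184, with 46 and 53 reads, had a ratio of 0.41 and an interval that included no change. With Rg3, the zinc-finger genes ZNF567 and ZNF41 were higher, at 1.35 (0.87 to 1.86) and 1.16 (0.70 to 1.64), and their partners LINC01534 (10 and 12 reads) and LINC01560 (11 and 20) had ratios of -0.07 and 0.53 with intervals that included no change. A difference between partners was not tested.

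**Figure D5:**
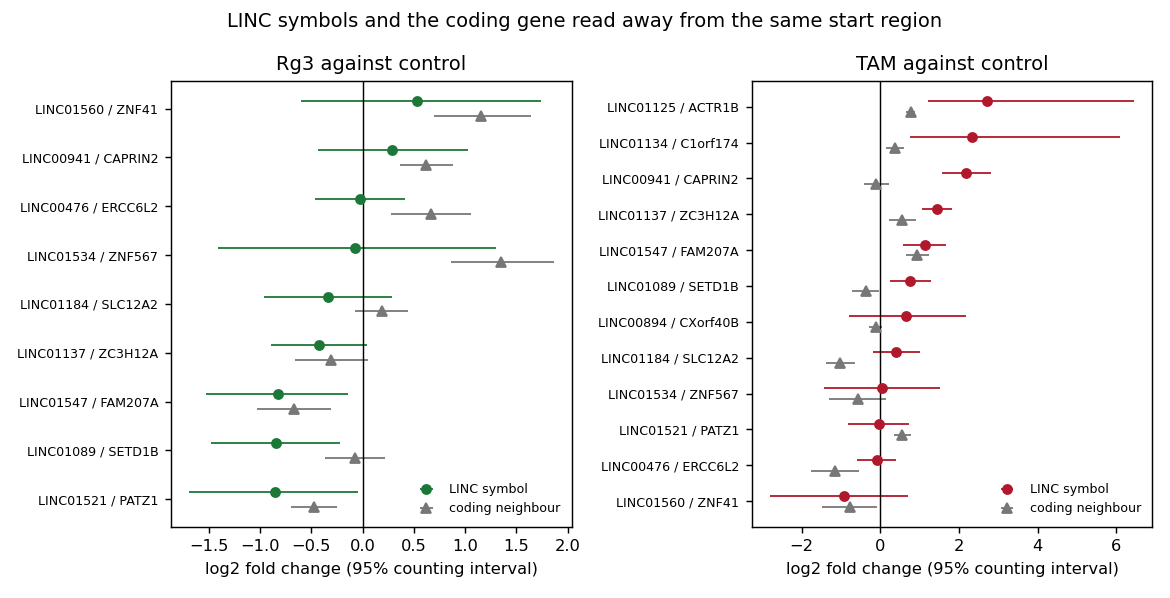
Log2 ratio to control, with exact 95% counting intervals, of LINC symbols (circles) and of the coding gene that starts within 1000 bases on the opposite strand (triangles), with Rg3 (left) and TAM (right), for pairs in which both were compared. Counts under 3 were raised to 3 for the points of LINC01125 and LINC01134. LINC01547 and FAM207A lie on the same side in both panels, and LINC00941 lies apart from CAPRIN2 with TAM.

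Among the hosts of microRNAs, LINC00461 and LINC00925 each contain a hairpin of miR-9, a microRNA known from neural progenitors. The MIR9-2 hairpin lies within LINC00461 at chr5:88666853-88666939 on the minus strand and the MIR9-3 hairpin within LINC00925 at chr15:89368017-89368106 on the plus strand. Both give the same mature sequences, shown from RefSeq with the seed, bases 2 to 8, in capitals.
miR-9-5p: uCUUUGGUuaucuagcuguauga
miR-9-3p: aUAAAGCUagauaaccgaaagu

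LINC00461 had 35 reads in control, 61 with Rg3 and 25 with TAM, with ratios of 0.47 (-0.16 to 1.11) and -0.28 (-1.08 to 0.50). LINC00925 had 18, 9 and 6 reads, with ratios of -1.33 (-2.67 to -0.10) and -1.38 (-3.00 to 0.02). The intervals of the Rg3 ratios of these miR-9 hosts overlapped by a small margin, and the microRNA itself was not measured. LINC00969, the host of miR-570, had 5, 10 and 8 reads, too few to be read.

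The symbols with 10 reads in only 1 library were few and small. These were 5 in control, 8 with Rg3 and 8 with TAM, and none of the 21 was at 0 in both other libraries. The highest were LINC00482, with 25 reads in the TAM library against 9 and 8, and LINC01024, with 24 in the Rg3 library against 9 and 7. All of these transcripts thus had reads in more than one library.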

How the data were processed

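Total RNA of PANC-1 cells was sequenced (Ion Proton) in 3 libraries. The authors used FAST-QC, aligned the reads with TopHat, assembled mapped reads with MAQ, and deposited, by gene symbol, raw counts of reads that were not normalized. The submitters' processing notes name GRCh38, and the annotation, counting tool and use of strand are not given in the sources used here. Each of the 3 value columns matched a library.

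Log2 ratios were computed from these counts (Python 3.11.15). TMM factors, by edgeR 4.0.16 under R 4.3.3, were estimated on genes with at least 10 counts in any library. They were 1.01, 1.12 and 0.877 in control, Rg3 and TAM. Genes entered a comparison with 10 or more counts in one of its libraries, lower counts than 3 were set to 3, and no ratio was taken with both at or under 3. The fold limits of 1.5 and 0.67 are those of the study's methods, whose Limma and FDR criteria need replicates that these data lack. Libraries of 11300766 to 12861693 counts set the counting intervals (95%, Clopper-Pearson).

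Symbols were matched to RefSeq (GRCh38.p14), and overlaps, lengths, GC content and shared stretches of 50 bases came from GENCODE 29. Symbols were named by rule: the 10 with most reads, the 6 largest changes each way past the limit with at least 30 counts, those past it in both treated libraries, and the listed symbols. The members, lists and rules were chosen with earlier results of these data known. Alternatives were library totals, DESeq2 1.42.0 size factors, filters of 1 and 50 counts, a limit of 2-fold, the fold alone, members without exon overlap, subtraction of a loess trend (span 0.3) on GC content and length, the exact test of edgeR with a coefficient of variation between cultures set to 0.2 or 0.4, and 5 or 20 counts to admit a symbol. The steps were tested on simulated data. Symbols picked for printed sequences and the remaining symbols past the limit were named after their values were seen.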

Additional observations from a re-analysis of the deposited data

How the results depend on the processing

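No paired analysis was possible because there is 1 library per condition, so that no library could be left out either. The numbers higher and lower were 3 and 15 with Rg3, 19 and 10 with TAM, and 11 and 24 for Rg3 against TAM. The shares of all genes past the limit under the other settings are not given here. Library totals in place of TMM moved the median of all genes by 0.15 with Rg3, -0.21 with TAM and 0.36 for Rg3 against TAM. With them 9 symbols were higher and 9 lower with Rg3 (median 0.053), 12 were higher and 14 lower with TAM (median -0.13), and 22 were higher and 18 lower for Rg3 against TAM (median 0.17), so the sign of each median and the balance of calls depend on the scaling. At 50 counts or more, 3 were higher and 4 lower with Rg3 (median 0.17), 9 were higher and 4 lower with TAM (median 0.25), and 7 were higher and 13 lower for Rg3 against TAM. A 2-fold limit gave 0 higher and 9 lower with Rg3 and 6 lower with TAM. The fold alone gave 12 and 25 with Rg3, 17 lower with TAM, and 19 and 38 for Rg3 against TAM. Symbols without exon overlap gave 6 lower with Rg3, 12 and 4 with TAM (median 0.21), and 6 and 13 for Rg3 against TAM (median -0.36), over fewer symbols. Once the GC and length trend was subtracted, the medians were 0.20 with TAM and -0.41 for Rg3 against TAM, and LINC01420 (-0.80 with Rg3, -0.60 for Rg3 against TAM) and LINC00261 (-0.80 for Rg3 against TAM) changed sign. The subtraction also brought some ratios of named symbols to control past the limit. These were LINC00152 (-0.67) and LINC00261 (-0.99) with Rg3, and LINC00152 (1.28), LINC00667 (0.79) and LINC00909 (0.66) with TAM. The cause was not tested. In edgeR's exact test with an assumed variation of 0.2, 0 were higher and 0 lower with Rg3 (4 at an unadjusted p under 0.05), 1 higher and 2 lower with TAM, and 3 were higher and 16 lower for Rg3 against TAM. At 0.4 the counts were 0 in each comparison and direction (0, 4 and 13 at an unadjusted p under 0.05). A minimum of 20 counts in place of 10 left 69 symbols. Counts of 10 to 30, which many of the symbols have, limit what these libraries can show, and the spread between cultures is not known.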

Other observations

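Long noncoding RNAs with a name of their own, which the LINC pattern does not take in, were read from a list of 35, of which 28 had at least 10 reads in a library. Of 27 compared with Rg3, 4 were higher and 4 lower, and of 28 compared with TAM, 7 were higher and 1 was lower, with median log2 ratios of 0.15 and 0.39. Over all genes, the shares past the limit upwards and downwards were 20.6% and 16.5% for Rg3 and 14.5% and 19% for TAM. The imprinted transcript H19 had 772 reads in control, 166 with Rg3 and 1410 with TAM, and MEG3, imprinted as well, had 678, 326 and 645. TUG1 had 621, 998 and 187 reads, with the TAM library the lowest, as it was for LINC00657. The nuclear RNAs NEAT1 and MALAT1 had 1246, 1071 and 1416 reads and 238, 352 and 378 reads. SNHG5, a host of small nucleolar RNAs, had 1007, 1949 and 1201 reads.

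Symbols that end in AS and a number, for transcripts read from the strand opposite to a named gene, were compared in the same way. With TAM, 73 of 233 (31.3%) were higher and 16 lower, with a median log2 ratio of 0.45, beside 14.5% and 19% of all genes. With Rg3, 27 of 230 (11.7%) were higher and 36 (15.7%) lower, with a median of -0.10, beside 20.6% and 16.5% of all genes. Since the use of strand in counting is not given, reads of the opposite gene may be among these counts.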
